A study of Homo sapiens with 6 samples.

Results

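Fibrinogen, the early and alternative-pathway complement factors, and a pair of plasma antiproteases were followed in 2 lung epithelial cell lines treated with TGF-β1. The 9 genes were taken by symbol from the count tables: the fibrinogen chain genes FGA, FGB and FGG, the complement genes C3, CFB, C1R and C1S, and the antiprotease genes SERPINA1 and SERPINA3. They are 9 of 24462 gene symbols, or of 25737 entries, listed in each table.

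The study treated A549 cells, an established line from a lung carcinoma, and BEAS-2B cells, an established line of bronchial epithelium, with 0, 1 or 5 ng/mL TGF-β1. Both lines were wild type by their labels, and treatment lasted 48 h in RPMI1640 with 1% fetal bovine serum. The labels call the controls untreated without giving the serum in their medium. The paper's methods give a higher serum content for culture and name no separate one for treatment. Any difference in serum between control and treated cells could not be told apart from TGF-β1. RNA was sequenced from transcript 3′ ends with the Lexogen QuantSeq kit, and each of the 6 conditions has 1 library. There was therefore no replicate error, no test and no p-value: the values below describe these 6 libraries, and every interval is an exact 95% interval for counting error only.

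Fibrinogen is a plasma protein built from paired Aα, Bβ and γ chains, encoded by FGA, FGB and FGG, and thrombin turns it into fibrin. The liver makes most of it, and its genes, like those of C3, factor B, α1-antitrypsin and α1-antichymotrypsin, are classical acute-phase genes that respond to IL-6-type or IL-1-type cytokines. C1r and C1s are the serine proteases of the first complement component, C3 is the protein on which the complement pathways meet, and factor B (CFB) supplies the protease of the alternative pathway. SERPINA1 (α1-antitrypsin) inhibits neutrophil elastase and SERPINA3 (α1-antichymotrypsin) inhibits cathepsin G.

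The 3 fibrinogen genes lie next to each other on chromosome 4, and their promoters are shown because these genes were all present in untreated A549, lower in treated A549 and nearly absent from BEAS-2B. Each run below is the 250 bases before the transcription start in the RefSeq promoter table (GRCh38.p14), written 5′ to 3′ on the strand of the gene, at chr4:154590743-154590992 (minus strand) for FGA, chr4:154562730-154562979 (plus strand) for the more upstream of the 2 listed FGB starts, and chr4:154612657-154612906 (minus strand) for FGG. Capitals mark matches on either strand to CTGGGAA (the core of the IL-6 response element), GTTAAT (an HNF1-type element), TTGCNNAA (a C/EBP-type site) or CAGACA (a SMAD-type element). These 4 motifs do not overlap in the windows shown.
FGA: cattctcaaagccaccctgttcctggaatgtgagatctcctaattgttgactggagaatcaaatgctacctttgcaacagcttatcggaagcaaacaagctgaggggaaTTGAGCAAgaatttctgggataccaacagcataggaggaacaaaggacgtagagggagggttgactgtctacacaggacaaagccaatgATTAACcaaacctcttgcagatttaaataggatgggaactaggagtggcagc
FGB: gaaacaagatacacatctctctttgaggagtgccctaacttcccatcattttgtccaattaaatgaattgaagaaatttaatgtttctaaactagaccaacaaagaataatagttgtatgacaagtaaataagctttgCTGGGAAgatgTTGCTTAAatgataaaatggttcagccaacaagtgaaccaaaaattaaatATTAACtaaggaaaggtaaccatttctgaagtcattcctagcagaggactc
FGG: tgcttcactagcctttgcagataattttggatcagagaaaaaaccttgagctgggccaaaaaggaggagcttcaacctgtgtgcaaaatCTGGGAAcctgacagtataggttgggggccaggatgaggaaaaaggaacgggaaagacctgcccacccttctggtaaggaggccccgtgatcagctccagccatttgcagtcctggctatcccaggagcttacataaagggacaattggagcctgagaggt

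FGB held CTGGGAA at 106 to 112 bases before its start, a C/EBP-type match at 94 to 101 bases and an HNF1-type element at 46 to 51 bases. FGA held an HNF1-type element at 47 to 52 bases and a C/EBP-type match at 134 to 141 bases, and FGG held only CTGGGAA, at 155 to 161 bases. None of the 4 fibrinogen windows held CAGACA. Among 35116 windows of the same length in the RefSeq table, 9.15% held CTGGGAA, 6.23% GTTAAT, 9.05% TTGCNNAA and 13.6% CAGACA. Of the other members in the table, both C1R windows held a C/EBP-type match and 1 of them an HNF1-type element, while 1 of the 2 SERPINA1 windows held an HNF1-type element and the other held CAGACA at 2 positions. The single CFB and SERPINA3 windows held none of the 4. A match of letters is a description and not a binding site.

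Library totals ran from 4120624 to 7841350 counts. Counts were scaled to a common library size with TMM factors of 0.927 to 1.08, and a gene was called higher or lower where the scaled counts (plus 1) differed at least 2-fold and at least 1 of the 2 libraries reached 127 scaled counts, which is 101 to 185 reads. A check used 8 TGF-β response genes, TGFBI, PMEPA1, COL1A1 and FN1 among them, chosen with earlier results of these data known. Of these, 5 were called higher in A549 at 1 ng/mL, 7 at 5 ng/mL, and 8 in BEAS-2B at each dose. Over all entries at the minimum, 10.9% and 16.1% were called higher in A549 at 1 and 5 ng/mL, and 5.66% and 7.33% in BEAS-2B. The markers went only partly with the labels. KRT8 and KRT18 were abundant in A549, but 6 of 7 alveolar type 2 markers had at most 12 reads in every A549 library, with SFTPA1 and SFTPC at 0, and the seventh, ABCA3, had 72 to 255. BEAS-2B had KRT8 (372, 204 and 175 reads at 0, 1 and 5 ng/mL) and KRT18 (1418, 717 and 806), but no EPCAM reads and at most 2 CDH1 reads. Of 5 basal and bronchial markers, KRT17 had 247, 2768 and 3006 reads in BEAS-2B, and KRT5, KRT14, TP63 and NGFR had at most 2 each. Of 6 fibroblast markers, BEAS-2B had THY1 (1160 to 1410 reads), PDGFRB (118 to 178) and COL1A2 (20 to 111), while DCN, LUM and PDGFRA had at most 4 reads. Of 8 leukocyte and endothelial markers, 6 (PTPRC, CD3E, LYZ, PECAM1, CDH5 and VWF) had at most 4 reads in any library. The other 2 were CD68, with 51, 73 and 52 reads in A549 and 24, 14 and 4 in BEAS-2B, and CD14, with 57, 24 and 14 in A549 and 24, 3 and 2 in BEAS-2B.

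RNA of all 3 fibrinogen genes was detected in A549 and nearly absent from BEAS-2B, and all 3 were called lower in A549 at both TGF-β1 doses. FGB, the Bβ chain, measured 1329 scaled counts in untreated A549, 111 at 1 ng/mL and 47.2 at 5 ng/mL, from 1147, 161 and 52 reads. FGA, the Aα chain, measured 513, 35.0 and 19.1 scaled counts (443, 51 and 21 reads). FGG, the γ chain, measured 351, 6.18 and 10.9 scaled counts (303, 9 and 12 reads). Each untreated A549 level lay far above the minimum of 127 and each treated level lay below it. In BEAS-2B, 1 FGB read in the untreated library was the only fibrinogen read: FGA and FGG had 0 reads in all 3 libraries and FGB had 0 in the treated 2. A floor of 3 reads stands for 3.35, 3.38 and 3.78 scaled counts in the BEAS-2B libraries at 0, 1 and 5 ng/mL. The exact upper limits of a count of 0 there were 4.11, 4.15 and 4.65 scaled counts.

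At 1 ng/mL, FGB was 12-fold lower than in untreated A549 (10.2 to 14.3), FGA was 14.6-fold lower (10.9 to 20.0) and FGG was 56.8-fold lower (29.5 to 125). At 5 ng/mL the factors were 28.2 for FGB (21.3 to 37.9), 26.9 for FGA (17.4 to 44.0) and 32.2 for FGG (18.2 to 63.1). The 3 intervals at 5 ng/mL overlapped, whereas at 1 ng/mL the FGG interval lay above those of FGA and FGB. Between the doses, FGB was 2.34-fold lower at 5 than at 1 ng/mL (1.71 to 3.27) and FGA 1.84-fold lower (1.09 to 3.22). FGG did not differ beyond counting error, with a ratio of 5 to 1 ng/mL of 1.76 (0.681 to 4.73). On the log2 scale, most of the difference from the control was thus present at 1 ng/mL.

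**Figure D1:**
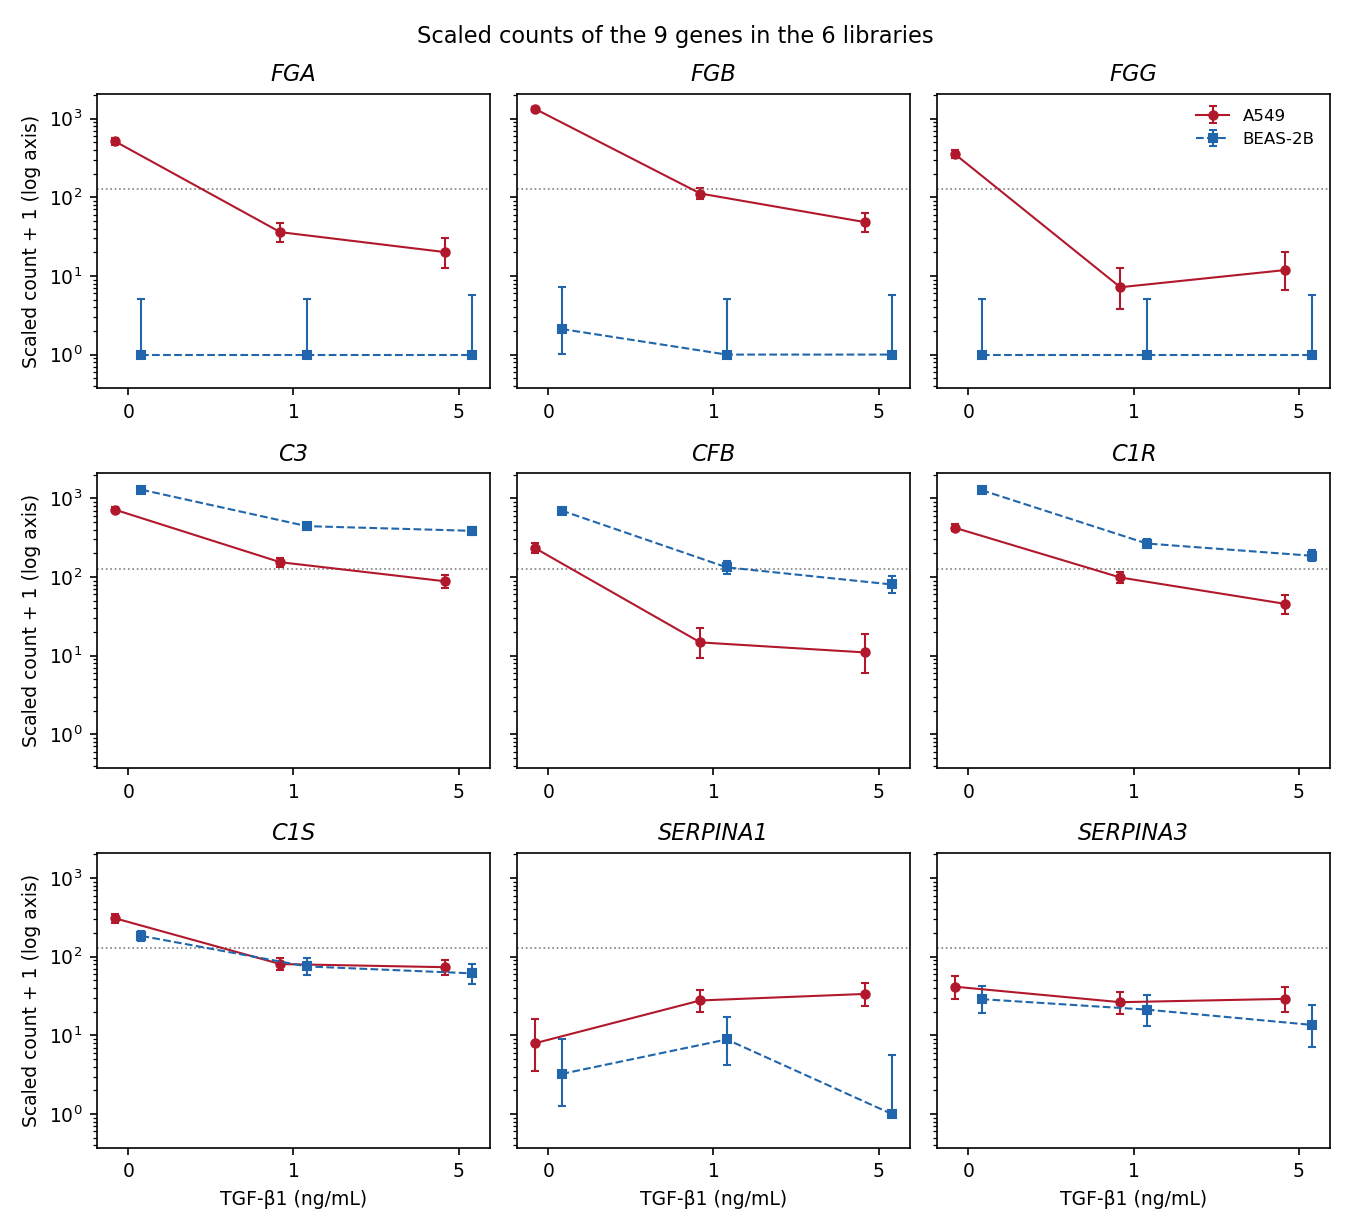
Scaled count plus 1 (log axis) of each of the 9 genes against TGF-β1 dose, with A549 as red circles and BEAS-2B as blue squares. Bars are exact 95% Poisson intervals and the dotted line is the minimum of 127 scaled counts (drawn at 128). Fibrinogen lies below the line in treated A549 and lies at the bottom of the axis in BEAS-2B, whereas C3, CFB and C1R lie higher in BEAS-2B than in A549 at every dose.

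Summed over the 3 chains, A549 held 1893 fibrinogen reads untreated, 221 at 1 ng/mL and 85 at 5 ng/mL. The scaled sum was 14.4-fold lower at 1 ng/mL (12.6 to 16.7) and 28.4-fold lower at 5 ng/mL (22.9 to 35.8). Because reads come from 3′ ends and were not divided by length, the share of each chain is compared between libraries and not between chains. FGA kept 23.4%, 23.1% and 24.7% of the fibrinogen reads at 0, 1 and 5 ng/mL. FGB held 60.6% (58.3 to 62.8) untreated, 72.9% (66.5 to 78.6) at 1 ng/mL and 61.2% (49.99 to 71.6) at 5 ng/mL. FGG held 16% (14.4 to 17.7), 4.07% (1.88 to 7.59) and 14.1% (7.51 to 23.4). The library at 1 ng/mL was thus the one with a low FGG share, which rests on 9 reads.

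The 4 complement members were present in both lines and were called lower at both doses in each of them. C3 measured 716, 153 and 87.1 scaled counts in A549 at 0, 1 and 5 ng/mL (618, 223 and 96 reads), and 1287, 442 and 385 in BEAS-2B (1154, 393 and 306 reads). CFB measured 232, 13.7 and 9.98 scaled counts in A549 (200, 20 and 11 reads) and 699, 132 and 79.4 in BEAS-2B (627, 117 and 63 reads). In both genes the BEAS-2B level was above that of A549 at the same dose, and the treated BEAS-2B levels were below the untreated A549 level. CFB is listed 7 times, and only 1 of these entries had reads.

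In A549, C3 was 4.67-fold lower at 1 ng/mL (4.0 to 5.47) and 8.22-fold lower at 5 ng/mL (6.62 to 10.3). In BEAS-2B it was 2.91-fold lower (2.59 to 3.27) and 3.34-fold lower (2.94 to 3.8). CFB was 16.9-fold lower at 1 ng/mL (10.6 to 28.2) and 23.2-fold lower at 5 ng/mL (12.7 to 47.3) in A549, against 5.31-fold (4.35 to 6.53) and 8.81-fold (6.79 to 11.6) in BEAS-2B. CFB thus had the largest ratio of the 4 complement members in A549 at both doses and in BEAS-2B at both doses, although its interval overlapped that of C1R in BEAS-2B at each dose and in A549 at 5 ng/mL.

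C1R and C1S encode partner proteases and sit side by side on chromosome 12 in RefSeq. C1R measured 421, 97.6 and 44.5 scaled counts in A549 at 0, 1 and 5 ng/mL (363, 142 and 49 reads) and 1272, 266 and 185 in BEAS-2B (1140, 236 and 147 reads). C1S measured 307, 79.7 and 72.6 in A549 (265, 116 and 80 reads) and 183, 74.3 and 60.5 in BEAS-2B (164, 66 and 48 reads). C1R was higher in BEAS-2B at each dose, and C1S was higher in A549 in the untreated libraries and did not differ between the lines beyond counting error after treatment.

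C1R was 4.31-fold lower at 1 ng/mL (3.54 to 5.27) and 9.46-fold lower at 5 ng/mL (7.01 to 13) in A549, and 4.79-fold (4.16 to 5.53) and 6.87-fold lower (5.78 to 8.21) in BEAS-2B. C1S was 3.85-fold (3.09 to 4.83) and 4.23-fold lower (3.28 to 5.50) in A549, and 2.46-fold (1.84 to 3.33) and 3.03-fold lower (2.18 to 4.27) in BEAS-2B. Of the reads of both genes together, C1R held 57.8% (53.8 to 61.7) in untreated A549, 55.0% (48.7 to 61.2) at 1 ng/mL and 38.0% (29.6 to 47.0) at 5 ng/mL. In BEAS-2B its share was 87.4% (85.5 to 89.2), 78.1% (73.1 to 82.7) and 75.4% (68.7 to 81.3). The C1R share was lower at 5 ng/mL than untreated in both lines, with intervals that did not overlap.

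**Figure D2:**
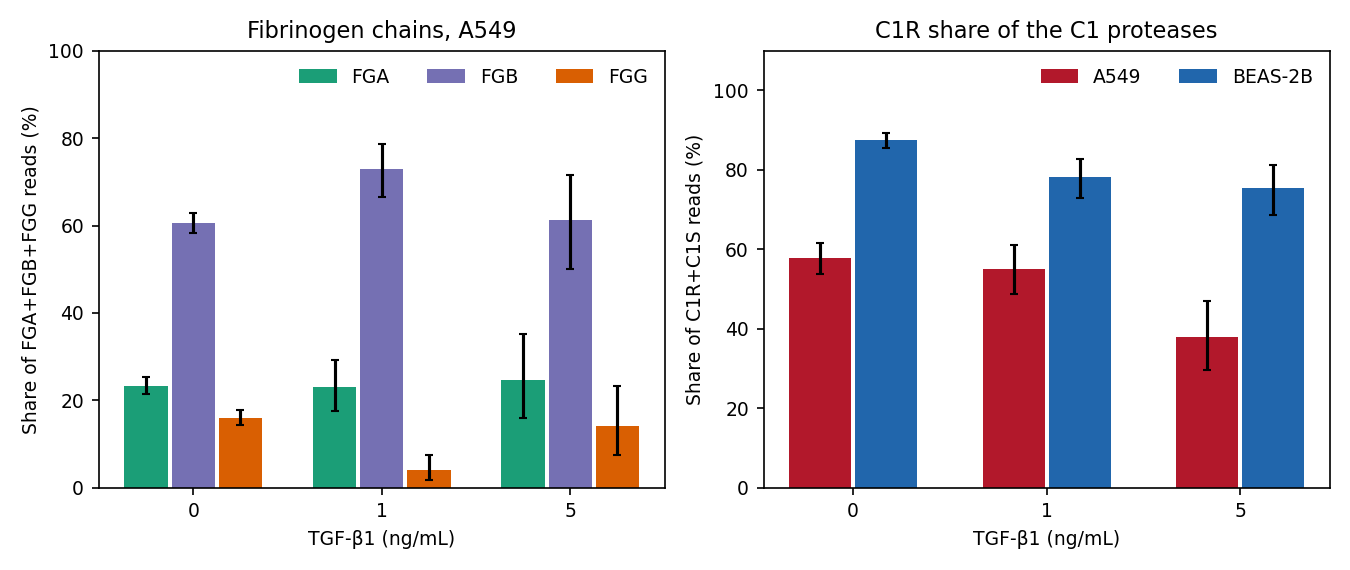
Left, share of the summed FGA, FGB and FGG reads (%) held by each chain in the 3 A549 libraries; right, share of the summed C1R and C1S reads (%) held by C1R in each line, against TGF-β1 dose. Bars start at 0 and error bars are exact 95% binomial intervals; FGG is low at 1 ng/mL (4.07%), and C1R goes from 57.8% to 38.0% in A549 and from 87.4% to 75.4% in BEAS-2B.

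The antiprotease genes were scarce, and neither reached the minimum in any library, so neither was called in any comparison. SERPINA1 measured 6.95, 26.8 and 32.7 scaled counts in A549 (6, 39 and 36 reads) and 2.23, 7.88 and 0 in BEAS-2B (2, 7 and 0 reads). Its ratio to untreated A549 was 3.85 at 1 ng/mL (1.62 to 11.1) and 4.70 at 5 ng/mL (1.96 to 13.6), the opposite direction to the fibrinogen and complement members. In BEAS-2B, the 7 and 2 reads gave a ratio at 1 ng/mL of 3.53 (0.672 to 34.8).

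SERPINA3 measured 40.6, 25.4 and 28.1 scaled counts in A549 (35, 37 and 31 reads) and 27.9, 20.3 and 12.6 in BEAS-2B (25, 18 and 10 reads). In A549 its ratios to the control were 0.627 at 1 ng/mL (0.384 to 1.03) and 0.694 at 5 ng/mL (0.414 to 1.16), both within counting error of 1. In BEAS-2B the ratio at 5 ng/mL was 0.452 (0.194 to 0.974). No pair of neighbours in the order of its 6 levels differed beyond counting error.

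Counted over the 9 genes, 7 were called lower and 0 higher in A549 at 1 ng/mL, where 12.6% of 7007 entries at the minimum were called lower and 10.9% higher. At 5 ng/mL the counts were again 7 lower and 0 higher, where 17.1% of 7115 entries were lower and 16.1% higher. In BEAS-2B, 4 were called lower and 0 higher at 1 ng/mL, beside 9.13% lower and 5.66% higher of 6681 entries. The same counts were found at 5 ng/mL, beside 11.6% lower and 7.33% higher of 6735 entries. Over the 4 complement members, which reached the minimum in both lines, the median log2 fold was -2.16 and -3.12 in A549 at 1 and 5 ng/mL and -1.90 and -2.26 in BEAS-2B, while the median over all entries at the minimum was 0.09, 0.11, 0.01 and 0.03. In A549 at 5 ng/mL the 7 called genes reached the minimum only in the untreated library, so a call of higher was not open to them. At 1 ng/mL this held for all of them but C3. In BEAS-2B it held for C1S at both doses and for CFB at 5 ng/mL. The genes were also chosen with earlier results of these data known, so the counts beside the shares are a description only. The comparisons of a line share its untreated library. In bulk RNA, fewer cells that express a gene and less RNA per cell cannot be told apart.

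**Figure D3:**
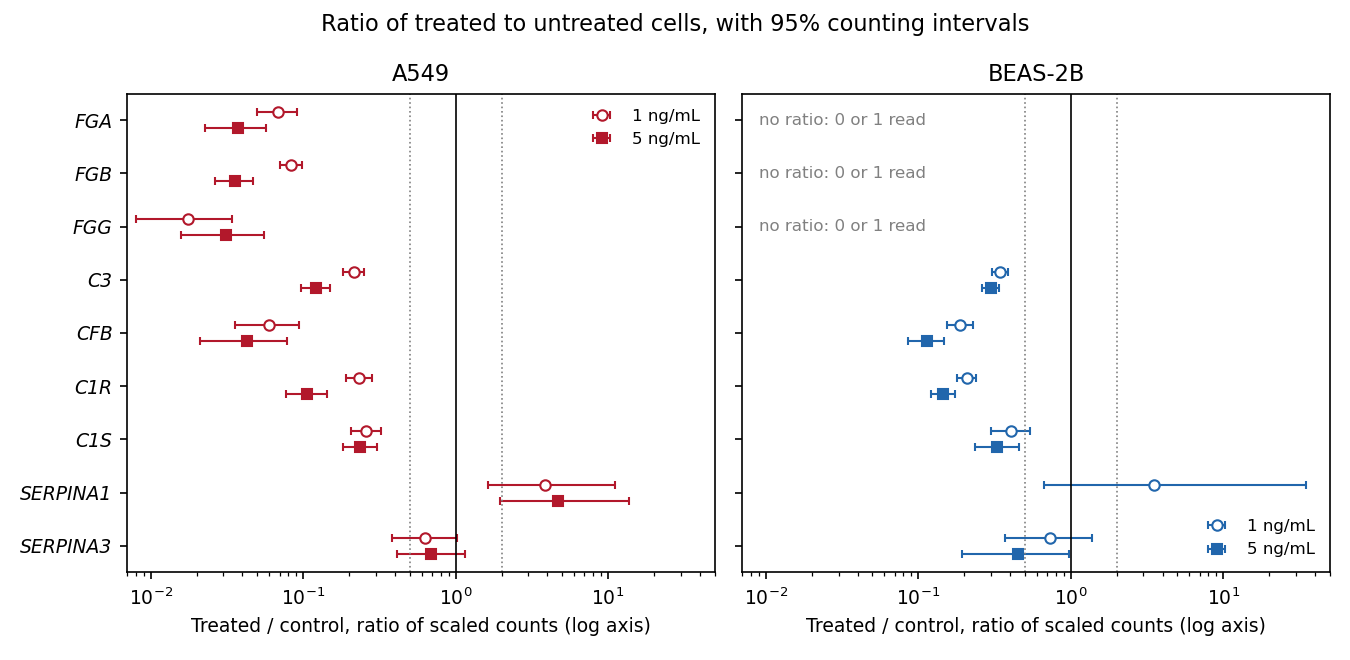
Ratio of scaled counts in treated to untreated cells (log axis) for each gene in A549 (left) and BEAS-2B (right), with open circles for 1 ng/mL and filled squares for 5 ng/mL. Bars are exact 95% counting intervals, the solid line is no difference and dotted lines are 2-fold. In A549, 7 genes lie left of the 2-fold line. In BEAS-2B the 4 complement genes do, as does SERPINA3 at 5 ng/mL, whose interval crosses that line. SERPINA1 at 5 ng/mL in BEAS-2B (0 reads) has no point.

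None of the 9 genes was called between 5 and 1 ng/mL in either line. Only 1 of them in A549 (C3) and 3 in BEAS-2B (C3, CFB and C1R) reached the minimum, so the others could not be called. Of entries at the minimum, 1.79% of 6467 were lower and 1.61% higher in A549. In BEAS-2B, 0.412% of 6306 were lower and 0.492% higher. Of the complement members, C3 (1.76-fold, 1.38 to 2.26) and C1R (2.19-fold, 1.58 to 3.10) were lower at 5 than at 1 ng/mL in A549 beyond counting error. CFB (1.66-fold, 1.21 to 2.29) and C1R (1.43-fold, 1.16 to 1.77) were lower in BEAS-2B. C1S did not differ between the doses beyond counting error in either line, nor did CFB in A549 or C3 in BEAS-2B. In A549, FGB and C1R differed more than 2-fold between the doses but had fewer than 127 scaled counts in both libraries.

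Between the untreated lines, 3 genes were called higher in A549 and 2 lower, beside 18.1% higher and 18.9% lower of 7329 entries. By the exact lower limits, FGA was at least 124-fold and FGG at least 84.8-fold higher in A549, where BEAS-2B had 0 reads. FGB had 1147 reads against 1, a ratio of 1191 (213 to 47100). CFB was 3.02-fold lower (2.57 to 3.56) and C1R 3.02-fold lower in A549 (2.68 to 3.41). C3 was 1.80-fold lower (1.63 to 1.99) and C1S 1.68-fold higher (1.38 to 2.05), both beyond counting error but under the 2-fold limit. The untreated lines thus differed in opposite directions for fibrinogen and for CFB and C1R.

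At 5 ng/mL, 0 genes were called higher in A549 and 2 lower, beside 14.8% higher and 12.1% lower of 6837 entries. C3 was 4.43-fold lower in A549 than in BEAS-2B (3.51 to 5.63) and C1R 4.16-fold lower (3.0 to 5.88). CFB was 7.95-fold lower (4.16 to 16.7), from 11 against 63 reads, below the minimum. C1S no longer differed beyond counting error, with a ratio of 1.20 (0.829 to 1.75). FGB remained at least 12.5-fold, FGA at least 5.04-fold and FGG at least 2.88-fold higher in A549, and SERPINA1 was at least 8.64-fold higher, all below the minimum. SERPINA3 was 2.23-fold higher in A549 (1.07 to 5.11), from 31 against 10 reads.

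**Figure D4:**
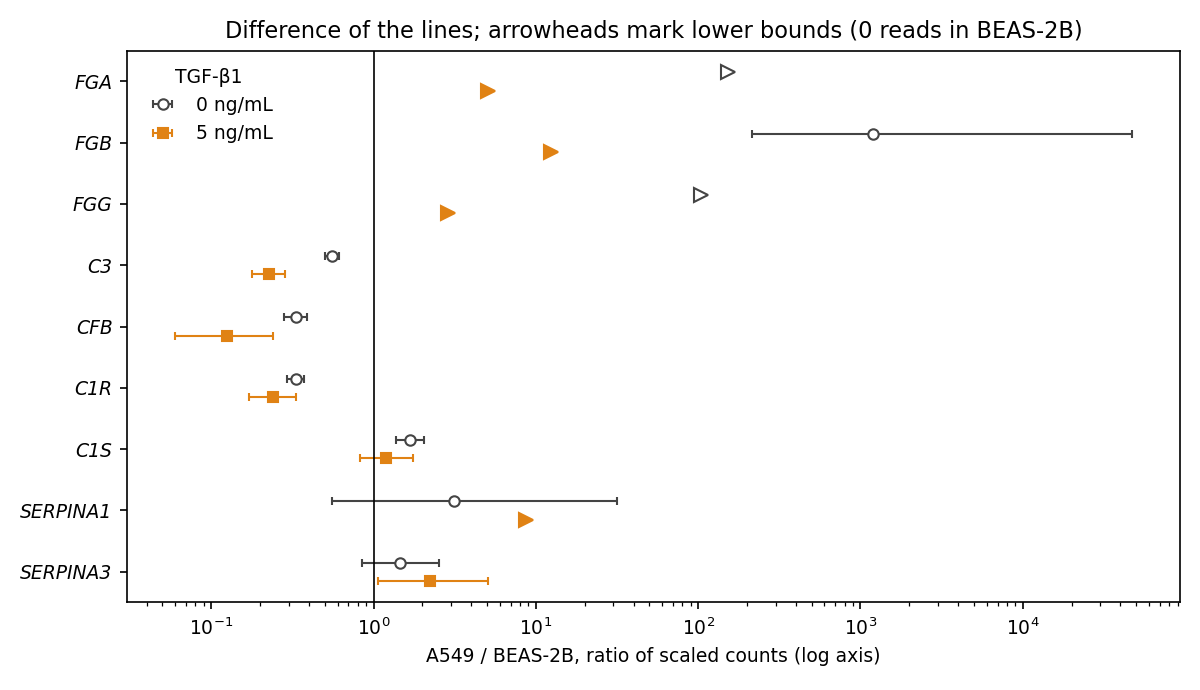
Ratio of A549 to BEAS-2B scaled counts (log axis) for each gene without TGF-β1 (open grey symbols) and at 5 ng/mL (filled orange symbols), with exact 95% counting intervals. Arrowheads are lower bounds where BEAS-2B had 0 reads; the bounds for FGA go from 153 to 5.04, and the ratios of C3, CFB and C1R lie further below 1 at 5 ng/mL.

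The change of the line difference was read from the ratio of the 2 lines' fold changes. Over all entries, 10.7% of 8018 had a ratio of at least 2 towards BEAS-2B at 5 ng/mL and 12.9% towards A549; at 1 ng/mL these shares were 9.07% and 12.7% of 7941. Of the 4 complement members, 2 (C3 and CFB) reached this ratio towards BEAS-2B at 5 ng/mL and 1 (CFB) at 1 ng/mL. For C3 the factor by which A549 was lower than its control was 2.46 times that of BEAS-2B at 5 ng/mL (1.91 to 3.19) and 1.61 times at 1 ng/mL (1.32 to 1.95). For CFB it was 2.63 times at 5 ng/mL (1.34 to 5.65) and 3.17 times at 1 ng/mL (1.90 to 5.53). C1R did not differ between the lines beyond counting error, with ratios of 1.38 (0.968 to 1.99) and 0.900 (0.704 to 1.15). C1S gave 1.40 at 5 ng/mL (0.908 to 2.14) and 1.56 at 1 ng/mL (1.07 to 2.27). For the fibrinogen genes no ratio with an interval could be formed, because the treated BEAS-2B libraries had 0 reads of them. The shares over all entries used a pseudocount of 1. With it, FGA, FGB and FGG had log2 ratios of -4.68, -3.71 and -4.89 at 5 ng/mL, also towards BEAS-2B. At 1 ng/mL these were -3.83, -2.49 and -5.61. Such values rest on the A549 libraries, since BEAS-2B had almost no fibrinogen reads.

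Ordered by level, C3, CFB and C1R had the same first 4 places: untreated BEAS-2B, untreated A549, BEAS-2B at 1 ng/mL and BEAS-2B at 5 ng/mL, followed by A549 at 1 and then 5 ng/mL. Untreated A549 exceeded BEAS-2B at 1 ng/mL by 1.62-fold for C3 (1.42 to 1.84), 1.76-fold for CFB (1.39 to 2.23) and 1.58-fold for C1R (1.34 to 1.87). Neighbours that did not differ beyond counting error were the 2 treated BEAS-2B libraries for C3, with a ratio of 1.15 (0.986 to 1.34), and the 2 treated A549 libraries for CFB, with 1.38 (0.629 to 3.18). For C1S no neighbouring pair among the 4 treated libraries differed beyond counting error. For FGA and FGB the 3 A549 libraries were ordered by dose, each step beyond counting error.

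The 5 genes nearest to each member were sought among 8159 entries that reached the minimum in at least 1 library, by the root mean square difference of log2 profiles over the 6 libraries after centring each gene. FGL1, which encodes a fibrinogen-like protein made by the liver, was nearest to FGA, at 0.37 log2 units, and IGFBP1 and SOX2 were also among its 5 nearest, at 0.40 and 0.45. TM4SF4 was nearest to FGB at 0.45, and UPK1B, HKDC1 and KYNU followed. For FGG the nearest were STEAP1, PLA2G4A, FSTL4, GACAT2 and BCAS1 at 0.62 to 0.70. All of these had at most 1 read in any BEAS-2B library, so the likeness rests on that absence and on 3 A549 libraries.

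C3 and C1R were each among the 5 nearest of the other, at 0.33 log2 units, and C1R was also among the 5 nearest to CFB, at 0.70. TAP2, a peptide transporter of antigen presentation, was nearest to C3 at 0.30, and PSMB8, an immunoproteasome subunit, was nearest to CFB at 0.67. PXDC1 was nearest to C1R at 0.26, and CENPA to C1S at 0.09. These distances describe 6 libraries with unequal depth and carry no test.

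Of 23 other complement components, 3 reached the minimum in A549 and all 3 were called lower at both doses: C1RL, C5 and CFD. C1RL and C5 reached the minimum only in the untreated library, so a call of higher was not open to them. The same held for many genes below that were called lower, such as CFI, FGL1, SLPI, LCN2 and APOH in A549. F3 and SAA1 in BEAS-2B were further cases. Over all entries in A549, 12.6% were called lower at 1 ng/mL and 17.1% at 5 ng/mL. The shares for BEAS-2B are given above, and the list counts are a description only. C5, which starts the membrane attack complex, had 350, 63 and 45 reads and was 9.37-fold lower at 1 ng/mL (7.15 to 12.5) and 9.93-fold lower at 5 ng/mL (7.27 to 13.9). CFD, the protease that cleaves factor B, had 663, 244 and 206 reads and was 4.58-fold (3.95 to 5.33) and 4.11-fold lower (3.51 to 4.83). C1RL, the neighbour of C1R on its other side, had 139, 67 and 34 reads and was 3.50-fold (2.60 to 4.76) and 5.22-fold lower (3.57 to 7.84). No component of this list reached the minimum in BEAS-2B, where CFD had 109, 28 and 35 reads. C1QA, C1QB and C1QC, which encode the recognition part of the first component, had 0 reads in all 6 libraries. C4A and C4B, near-identical copies whose reads can be split wrongly, had at most 29 reads each.

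Of 20 complement regulators and receptors, 6 reached the minimum in A549, and 4 were called lower and 1 higher at both doses. CFI, the protease that inactivates C3b, had 174, 29 and 13 reads and was 10.1-fold lower at 1 ng/mL (6.80 to 15.6) and 17.1-fold lower at 5 ng/mL (9.74 to 32.7). CD46 and CD55, membrane inhibitors of complement, were 3.54-fold (2.99 to 4.20) and 2.15-fold lower (1.71 to 2.72) at 5 ng/mL, and CD55 at 1 ng/mL stood close to the limit at 2.01-fold (1.63 to 2.48). CD59, the membrane inhibitor of the attack complex, went the other way, with 896, 5472 and 4645 reads, 3.62-fold higher at 1 ng/mL (3.37 to 3.89) and 4.06-fold higher at 5 ng/mL (3.78 to 4.37). CLU was not called in A549.

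In BEAS-2B, 3 of these regulators reached the minimum. CLU, with 782, 199 and 162 reads, was called lower at both doses, by 3.90-fold (3.33 to 4.57) and 4.27-fold (3.60 to 5.09). CD46 was called lower at 5 ng/mL only, by 2.06-fold (1.5 to 2.85), against 1.52-fold at 1 ng/mL (1.15 to 2.01). CD59 was not called there, with ratios of 1.40 (1.32 to 1.49) and 1.25 (1.17 to 1.33). The membrane regulator CD59 thus did not go with C3, CFB, C1R and C1S in either line.

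Among 24 other coagulation genes, 6 reached the minimum in A549, of which 4 were called lower at both doses and 0 higher. FGL1 was 6.26-fold lower at 1 ng/mL (4.78 to 8.29) and 14.2-fold lower at 5 ng/mL (9.27 to 22.8). PROCR, PROS1 and TFPI, which encode the endothelial protein C receptor, protein S and the tissue factor pathway inhibitor, all restrain clotting, and at 5 ng/mL they were 7.39-fold (5.57 to 9.97), 6.69-fold (4.34 to 10.7) and 5.43-fold lower (4.33 to 6.86). In BEAS-2B, 3 reached the minimum at either dose. F3, tissue factor, had 308, 41 and 47 reads and was 7.45-fold (5.36 to 10.6) and 5.80-fold lower (4.26 to 8.07). TFPI was 3.96-fold (3.26 to 4.83) and 4.81-fold lower (3.87 to 6.04), while TFPI2 was 6.58-fold (4.74 to 9.34) and 7.04-fold higher (5.07 to 10.0). F2, prothrombin, had 35, 24 and 10 reads in A549 and at most 1 in BEAS-2B.

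No other clade A serpin reached the minimum in any comparison, with 9 of 10 listed in the tables. Of 24 other protease inhibitors, 7 reached the minimum in A549 and 4 were called lower at both doses: SLPI, SPINT2, CSTB and SERPINB1. SLPI, a further inhibitor of neutrophil elastase, had 185, 13 and 3 reads and was 24.0-fold lower at 1 ng/mL (13.7 to 45.9), with a ratio of 0.0127 (0.00260 to 0.0377) at 5 ng/mL. CSTB was 17.1-fold lower at 5 ng/mL (13.7 to 21.4), SPINT2 10.7-fold (9.10 to 12.7) and SERPINB1 4.74-fold (4.05 to 5.57). SERPINB6 was called higher at 5 ng/mL, by 2.17-fold (1.84 to 2.57).

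In BEAS-2B, 5 of these inhibitors reached the minimum and the same 3 were called at both doses. SERPINB9, the granzyme B inhibitor, was 15.1-fold (7.72 to 33.7) and 13.5-fold lower (6.90 to 30.1), and CSTB was 9.08-fold (6.79 to 12.4) and 6.56-fold lower (5.04 to 8.68). CST6 was 4.15-fold (2.86 to 6.15) and 6.05-fold higher (4.22 to 8.90). The 6 proteases that the antiproteases bind, including ELANE and CTSG, had at most 4 reads in any library.

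Of 21 other liver-type acute-phase and plasma protein genes, 3 reached the minimum in A549 and were called lower at both doses. LCN2, lipocalin 2, had 263, 7 and 0 reads and was 63.4-fold lower at 1 ng/mL (30.3 to 159). With 3 reads set for the 0, it was 112-fold lower at 5 ng/mL. APOH had 155, 27 and 15 reads and was 9.68-fold (6.40 to 15.2) and 13.2-fold lower (7.76 to 24.1). CP, ceruloplasmin, had 699, 222 and 132 reads and was 5.31-fold (4.56 to 6.20) and 6.76-fold lower (5.61 to 8.21). In BEAS-2B the 2 at the minimum were SAA1 and SAA2, near-identical genes whose reads may be exchanged. SAA1 had 859, 77 and 64 reads and was 11.1-fold (8.75 to 14.2) and 11.9-fold lower (9.21 to 15.6), and SAA2 had 130, 20 and 2. ALB had 1 read in untreated A549 and 0 elsewhere, APOB and CRP had 0 in all 6 libraries, and HNF4A was the 1 hepatocyte marker that reached the minimum, in A549.

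Of 24 cytokine-signalling and transcription factor genes known from the acute-phase response, 17 reached the minimum in A549. At 1 ng/mL 7 were called lower and 1 higher, and at 5 ng/mL 9 were called lower and 2 higher. SOCS3, a feedback inhibitor induced by STAT3, had 198, 49 and 17 reads and was 6.81-fold (4.96 to 9.52) and 14.9-fold lower (9.06 to 26). CEBPD, CEBPB and OSMR were lower at 5 ng/mL by 5.81-fold (5.15 to 6.57), 4.54-fold (3.94 to 5.24) and 5.67-fold (4.35 to 7.49). IL6ST, the shared receptor chain gp130, was 3.28-fold lower (2.67 to 4.07), and FOXA2, HNF4A and NFKBIA were 2.0-fold to 2.26-fold lower. NFKB2 and RELB were called higher at 5 ng/mL, by 3.22-fold (2.91 to 3.56) and 3.10-fold (2.63 to 3.68). STAT3 itself was not called, with ratios of 1.08 (0.976 to 1.19) and 1.63 (1.48 to 1.79).

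In BEAS-2B 14 of these genes reached the minimum, and 5 were called lower and 0 higher at each dose. SOCS3 was 30.6-fold (14.6 to 77.0) and 31.9-fold lower (14.4 to 87.8), CEBPD 14.5-fold (11.1 to 19.3) and 16.7-fold lower (12.4 to 23.1), and OSMR 3.77-fold (2.75 to 5.25) and 7.32-fold lower (4.73 to 11.8). NFKBIA was 2.39-fold (2.21 to 2.58) and 3.11-fold lower (2.84 to 3.40). CEBPB, called lower in A549 at 5 ng/mL, was not called in BEAS-2B. It measured 312, 349 and 616 scaled counts there at 0, 1 and 5 ng/mL, the opposite direction. NFKB1 was called lower at 5 ng/mL, by 2.40-fold (1.95 to 2.96), and was 1.66-fold lower at 1 ng/mL (1.40 to 1.99). HNF4A and FOXA2, factors of liver-type transcription, had 268 and 682 reads in untreated A549 and 0 in untreated BEAS-2B. With 3 reads set for the 0, they were 92.8-fold and 236-fold higher in A549. In treated BEAS-2B they had at most 3 reads.

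**Figure D5:**
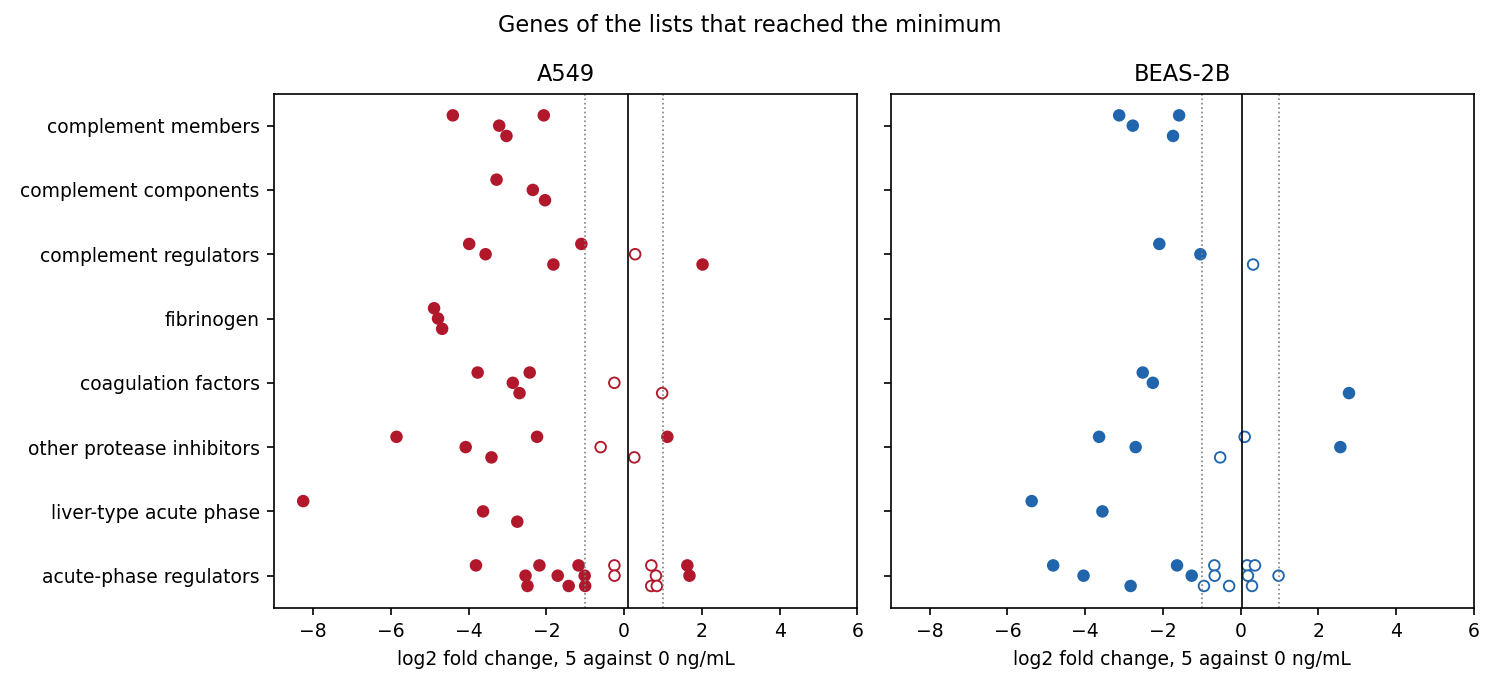
Log2 fold change at 5 against 0 ng/mL of each gene at the minimum in 8 lists, in A549 (left) and BEAS-2B (right). Each point is 1 gene, filled where called and open where not, the solid line is the median of all entries at the minimum (0.11 and 0.03) and dotted lines are 2-fold; the complement, coagulation and liver-type lists lie mostly left of the line in A549, with CD59 to the right. Vertical offsets within a list carry no meaning.

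Marker levels differed between the A549 libraries as well. CDH1, E-cadherin, had 640, 30 and 8 reads and was 36.0-fold (25 to 53.8) and 102-fold lower (51.5 to 238), and KRT8 was 3.70-fold (3.54 to 3.87) and 4.36-fold lower (4.13 to 4.59). The summed scaled count of the 5 epithelial markers was 24834 untreated, 11182 at 1 ng/mL and 10461 at 5 ng/mL in A549, and 2050, 1042 and 1262 in BEAS-2B. That of the 6 fibroblast markers was 22.0, 324 and 76.2 in A549 and 1452, 1671 and 2125 in BEAS-2B, where THY1 alone gave 1294, 1394 and 1776. COL1A2 gave 236 of the 324 in A549 at 1 ng/mL. The summed scaled count of the 8 leukocyte and endothelial markers was 126, 71.5 and 61.7 in A549 and 55.8, 22.5 and 12.6 in BEAS-2B, mostly CD68 and CD14; CD14 was lower beyond counting error at both doses in both lines and never reached the minimum. The part of these marker levels in the fibrinogen and complement values was not tested.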

How the data were processed

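RNA was sequenced from 6 libraries, 1 per cell line and dose. The values used are raw read counts per gene as deposited by the authors, with 4120624 to 7841350 counts per library; the submitters' processing notes name Bowtie2, bedtools and hg19, and the paper names ExDEGA. Versions, strand setting and filters are not given in the sources used here.

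Counts were scaled with TMM factors over the 6 libraries (R 4.3.3, edgeR 4.0.16) to the mean effective library size. Python 3.11.15 with scipy 1.17.1 gave exact Clopper-Pearson intervals for ratios of 2 counts, and exact conditional odds-ratio intervals for ratios of folds. A call needed at least 2-fold and log2(scaled count + 1) of at least 7 in 1 of the 2 libraries, with a pseudocount of 1 for the fold. The limits of 2 and 7 are those of the study's methods, but the scaling, the pseudocount and the 1-of-2 rule were set here, so the calls are not the study's list. For symbols with several entries the entry with most counts was used. The steps were tested on simulated data. No molecular identifiers were used here, so reads may be copies of one another, and intervals and floors of 3 counts cover counting error only.

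The members and all gene lists were chosen with earlier results of these data known. Named genes are all 9 members, the called genes of each list (up to 6 by fold) with genes needed for small counts, and the 5 nearest profiles per member at the minimum; further list genes with low counts were chosen after their values were seen. Some genes of the lists and of the nearest profiles are counted but not reported here by name. RefSeq (GRCh38.p14) gave promoters for 7 of 9 members and gene neighbours; because counting used hg19, no gene coordinates are given. DESeq2 1.42.0 size factors, total counts, upper-quartile factors, TMM within each line, other pseudocounts, minimums, fold limits and a filter on low counts were tried as alternatives.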

Additional observations from a re-analysis of the deposited data

How the results depend on the processing

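Over 22 log2 folds of members, 154 alternative values were computed under other size factors, pseudocounts, summed entries and filters: all 154 stayed within the counting interval of the reported value, and 0 changed direction. Of 122 counts of called members, 18 moved by more than 1.5 times, under other minimums or fold limits. Requiring the minimum in both libraries left 1 member called in A549 at 1 ng/mL, 0 at 5 ng/mL and 2 in BEAS-2B at 5 ng/mL. It left 2 between the untreated lines and 0 between the lines at 5 ng/mL. The members no longer called had measured levels below the minimum in 1 of the 2 libraries. With log2(CPM + 1) as the level, chosen after seeing the data, the counts were 2 and 2 in A549 at 1 and 5 ng/mL, 3 between the untreated lines and 0 between the lines at 5 ng/mL. With no minimum they were 7 in BEAS-2B at 5 ng/mL, 8 between the lines at 5 ng/mL, and 2 and 1 between the doses in A549 and BEAS-2B. The 7 included FGB (0 against 1 read) and SERPINA1 (0 against 2 reads), neither beyond counting error. The 8 between the lines went in both directions. A minimum of 8 left 1 between the lines at 5 ng/mL, a minimum of 6 gave 2 between the doses in A549, a 3-fold limit left 2 in BEAS-2B at 1 ng/mL, and a 1.5-fold limit gave 1 between the doses in each line.

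Scaling by total counts moved the median of all entries by -0.25 log2 units in A549 at 5 ng/mL, -0.19 at 1 ng/mL, -0.14 and -0.15 in BEAS-2B at 1 and 5 ng/mL, and -0.11 between the lines at 5 ng/mL. No paired analysis was possible because the labels carry no replicate numbers and each condition has 1 library; a model of line plus dose, which would take the 2 lines as replicates, was not run. No library could be left out without losing its condition. Depth limits FGG in treated A549 (9 and 12 reads), SERPINA1 and all fibrinogen values in BEAS-2B.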

Other observations

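Genes beside the members on the chromosome did not share their profile in the fibrinogen region. PLRG1, next to FGB, measured 173, 188 and 265 scaled counts in A549 at 0, 1 and 5 ng/mL and 183, 185 and 232 in BEAS-2B, while LRAT, next to FGG, had reads only in A549 at 5 ng/mL (8 reads). Beside CFB, NELFE measured 209, 346 and 383 scaled counts in A549 and 229, 449 and 389 in BEAS-2B, and C2 had at most 2 reads in any library. Beside C1S, LPCAT3 measured 191, 105 and 85.3 scaled counts in A549 and 158, 77.6 and 56.7 in BEAS-2B, lower at both doses in both lines. In the serpin cluster, SERPINA6, which encodes corticosteroid-binding globulin, had 42, 6 and 3 reads in A549 and 0 in BEAS-2B, whereas SERPINA5, the protein C inhibitor, had 2, 5 and 0 reads in A549 and 1, 21 and 15 in BEAS-2B.

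Several plasma protein genes below the minimum had most of their reads in untreated A549, chosen here after their values were seen. VTN, vitronectin, had 80, 9 and 7 reads at 0, 1 and 5 ng/mL, F5, coagulation factor V, had 60, 9 and 10, ITIH2 had 49, 11 and 8, and C4BPA had 34, 0 and 0. F7 had 31, 2 and 0 reads and RBP4 had 32, 1 and 0. PROC, protein C, went the other way with 11, 25 and 43 reads, as did A2M with 4, 24 and 14 reads from libraries of unequal depth.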
